A study of Mus musculus with 16 samples.

Results

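The fibroblast growth factor (FGF) receptor genes *Fgfr1*, *Fgfr2*, *Fgfr3* and *Fgfr4* and the co-receptor gene *Klb* (beta-klotho) were followed across 16 mouse liver RNA libraries. They were chosen by symbol, which gave 5 of the 52143 genes in the count table, and all 5 had enough counts to be tested. The libraries came from male C57BL6/J mice, 6 weeks old at the start, which were fed for 12 weeks and belonged to 4 groups of 4. The Chow and Chow/FGFR4 KD mice ate a chow diet, and HFD and HFD/FGFR4 KD mice ate a high-fat diet (HFD) with 60% fat. The knockdown (KD) groups received an siRNA against *Fgfr4* at 3 mg/kg every 2 weeks, and the Chow and HFD groups received saline. The siRNA was conjugated to *N*-acetylgalactosamine, a sugar bound by the asialoglycoprotein receptor of hepatocytes, so it was aimed at hepatocytes and not at the other cells of the liver. No other siRNA was given to the controls, so an effect of any siRNA cannot be told apart from that of losing *Fgfr4*. Mice were housed 4 to a cage, and where a group filled a cage, cage and group cannot be told apart.

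The FGF receptors are receptor tyrosine kinases that bind FGFs outside the cell and pass the signal to the RAS-ERK cascade inside it. FGFR4 is the main FGF receptor of hepatocytes. Together with beta-klotho, a membrane protein that holds endocrine FGFs to the receptor, it receives FGF15, which the ileum releases after bile acid uptake and which lowers bile acid synthesis in the liver. Beta-klotho also serves FGFR1 as the co-receptor for FGF21, a hormone made by the liver. FGFR1 and FGFR2 are best known from mesenchymal and epithelial cells, and FGFR3 from cartilage.

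An siRNA pairs with a short stretch of its target, and the 4 receptor mRNAs resemble each other, so the sequence they share is shown first. In the annotation of the genome build GRCm38 (GENCODE M21), *Fgfr4* (ENSMUSG00000005320) lies on chromosome 13 from 55152640 to 55168759 on the plus strand and has 18 exons in its longest coding transcript. The coding sequence of *Fgfr4* was identical at 61.0%, 62.4% and 63.7% of aligned bases to that of *Fgfr1*, *Fgfr2* and *Fgfr3*. The 60 bases with the most positions identical in all 4 genes lie in the coding part of exon 7 of *Fgfr4* (chr13:55159994-55160053). Capitals mark the 45 positions at which the 4 genes have the same base, and no identical run is longer than 8 bases.
Fgfr4: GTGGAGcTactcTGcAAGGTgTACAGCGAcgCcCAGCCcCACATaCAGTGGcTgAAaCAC
Fgfr1: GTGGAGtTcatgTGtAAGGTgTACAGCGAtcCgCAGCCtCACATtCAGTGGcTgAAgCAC
Fgfr2: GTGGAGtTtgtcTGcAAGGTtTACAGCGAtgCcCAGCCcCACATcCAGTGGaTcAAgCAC
Fgfr3: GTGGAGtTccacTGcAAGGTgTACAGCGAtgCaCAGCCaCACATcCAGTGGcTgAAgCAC
Over this window *Fgfr1*, *Fgfr2* and *Fgfr3* differed from *Fgfr4* at 11, 9 and 8 positions. The longest exact matches between annotated transcripts of *Fgfr4* and another receptor were 20 bases long, a single one with *Fgfr1*, in exon 5, and 3 with *Fgfr3*, in exons 6, 7 and 13. They are printed because a base-paired region of 21 bases, searched in the same transcripts, was shared by *Fgfr4* with none of the other receptors.
Fgfr4 and Fgfr1, exon 5: atggagaagaaactgcatgc
Fgfr4 and Fgfr3, exon 6: atggaaagtgtggtaccctc
Fgfr4 and Fgfr3, exon 7: caccggcccatcctgcaggc
Fgfr4 and Fgfr3, exon 13: tcctgtgcctaccaggtggc
The longest match of *Fgfr4* with *Fgfr2* was 14 bases. The sequence of the siRNA is not given in the sources used here, so its own matches were not examined.

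The counts are estimates that share reads between transcripts of like sequence, so the words of 31 bases in each gene's transcripts were compared with those of all other genes in the table. *Fgfr4* and *Klb* shared 0 of 3510 and 0 of 4546 words. *Fgfr1* shared 3.69% of its words, with 709 genes, and *Fgfr2* 2.69%, all with *Ctbp2*, whose annotated span on chromosome 7 overlaps that of *Fgfr2*. *Fgfr3* shared 2.60%, and all of these words were found in *Nvl*. With all annotated genes, in the table or not, *Fgfr3* shared 1102 of its 7418 words. No receptor shared a 31-base word with another receptor. *Fgfr3* also overlaps G630022F23Rik, a gene annotated on the opposite strand, which was not analysed here. Whether counting used the strand is not given in the sources used here, so reads of that gene would be counted with *Fgfr3* if it did not.

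Total estimated counts ran from 3445949 to 5976449 per library. A floor of 3 counts stood for 0.430 to 0.906 CPM (the estimated count over the TMM-scaled library size), and the members had between 8 and 223 counts. The lowest counts were those of *Fgfr1*, with at most 34.2 in a library, and of *Fgfr4* under KD, with at most 32. Hepatocyte markers summed to between 56863 and 76464 CPM in every library, as the label liver says. The adipocyte list summed to 0.532 to 13.6 CPM in Chow and 0.276 to 4.96 CPM in Chow/FGFR4 KD. It summed to 18.3 to 28.5 CPM in HFD and 3.98 to 14.8 CPM in HFD/FGFR4 KD. Of this list *Lep* was at 0 in all groups and *Plin1* in HFD. HFD/FGFR4 KD 1 differed from the other 3 libraries of its group by a chi-square per degree of freedom of 48.0 to 72.6 over 7405 genes, where those 3 differed from each other by 7.59 to 16.6. The HFD group was split as well. HFD 2 differed from HFD 1 and HFD 3 by 56.5 and 58.9, and HFD 4 from them by 37.3 and 34.7. HFD 1 and HFD 3 differed by 11.4, and HFD 2 and HFD 4 by 11.7. The gene *Gm42418*, which was among the genes compared, held 11.1% to 22.7% of a library's counts. Its share was 22.3% in HFD/FGFR4 KD 1 and 13.7% to 16.2% in the rest of that group. The part of *Gm42418* in these differences was not tested. Chow/FGFR4 KD 4 had 2378 CPM of the acute-phase gene *Saa2*, chosen after its values were seen, where the other 15 libraries had at most 118 CPM. Where leaving out both HFD/FGFR4 KD 1 and Chow/FGFR4 KD 4, a choice made after the data were seen, ended a call, this is said beside it. P-values set the differences between groups against the spread between mice within groups, which was estimated from all 16 libraries.

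*Fgfr4*, the target of the siRNA, was lower in all 8 KD livers than in all 8 saline livers. The 4 Chow libraries had 27.9, 25.8, 36.3 and 28.9 CPM, and the 4 Chow/FGFR4 KD libraries 5.95, 6.17, 4.24 and 2.76 CPM. On HFD the levels were 30.1, 28.6, 21.8 and 22.4 CPM with saline and 2.82, 2.43, 5.31 and 4.4045 CPM with KD. The lowest saline library on either diet was thus far above the highest KD library. The estimated counts behind these values were 99 to 209 in saline libraries and 10 to 32 in KD libraries, so no KD library was at the floor. The fitted level left after KD was 16.3% on chow and 14.6% on HFD. *Fgfr4* was called, with the smallest p of all 11324 genes tested, in both comparisons, at an adjusted p of 0.000223 on chow and 9.06e-05 on HFD in limma-voom. Calls required an unadjusted p under 0.05 and an adjusted p under 0.25, which held for 0.00883% of genes for KD on chow and for 3.14% for KD on HFD (1.5% higher and 1.64% lower). Without HFD/FGFR4 KD 1 and Chow/FGFR4 KD 4 the log2 changes went from -2.62 to -2.40 on chow and from -2.78 to -2.66 on HFD, and both remained called. Groups without overlap were seen for 2.52% of genes on chow and 6.49% on HFD.

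The remaining *Fgfr4* did not pass a test of difference between the diets. The KD effect on HFD minus that on chow was -0.16 on the log2 scale (SE 0.377, adjusted p = 0.967), a ratio of 0.896 with a 95% interval from 0.516 to 1.56. HFD itself left *Fgfr4* at 0.863 times the chow level in saline-injected mice (95% interval 0.690 to 1.08, adjusted p = 0.406), and scaling by library totals alone turned the log2 change from -0.21 to 0.07. Under KD the same ratio was 0.773 (0.467 to 1.28, adjusted p = 0.585), on 10 to 32 estimated counts. In bulk liver, fewer hepatocytes and less *Fgfr4* mRNA per hepatocyte cannot be told apart, and mRNA left in cells the siRNA does not enter cannot be told apart from mRNA left in hepatocytes.

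**Figure D1:**
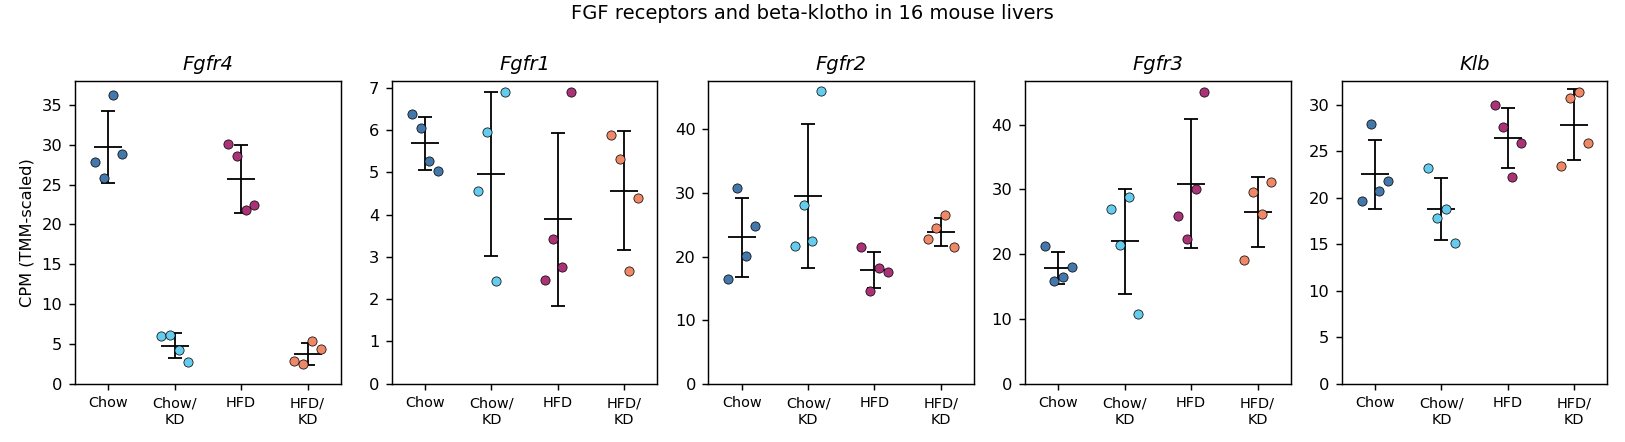
Levels of the 4 FGF receptors and beta-klotho in CPM (vertical axes from 0, a scale of its own for each gene) in the 4 groups. Points are libraries, horizontal lines group means and bars ± 1 SD (n = 4). The KD points of *Fgfr4* lie between 2.43 and 6.17 CPM and the saline points between 21.8 and 36.3 CPM, while the KD and saline points of *Fgfr1*, *Fgfr3* and *Klb* overlap on both diets.

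The other receptors were compared under KD to see whether their mRNA moved when *Fgfr4* was lost. None of *Fgfr1*, *Fgfr2*, *Fgfr3* and *Klb* was called in limma-voom on either diet or had an unadjusted p under 0.05, which 11% of all genes had on HFD and 4.58% on chow. The largest difference was that of *Fgfr2* on HFD. *Fgfr2* (ENSMUSG00000030849, chromosome 7, minus strand) encodes a receptor for FGFs of connective tissue. Its HFD libraries had 21.5, 14.6, 18.2 and 17.6 CPM, and its HFD/FGFR4 KD libraries 22.8, 24.6, 26.6 and 21.5 CPM. Each KD value was above each saline value, the lowest KD library by little, and 6.49% of all genes were separated in this way. The fitted ratio was 1.34 (95% interval 0.977 to 1.84), with an unadjusted p of 0.0673 and an adjusted p of 0.497 in limma-voom. On chow the Chow libraries had 16.4, 30.8, 20.1 and 24.9 CPM of *Fgfr2* and the Chow/FGFR4 KD libraries 21.6, 28.1, 22.4 and 46.0 CPM. These overlapped, and the highest value was that of Chow/FGFR4 KD 4, the library rich in *Saa2*. The ratio on chow was 1.26 (0.917 to 1.74, adjusted p = 0.976), and the log2 change went from 0.34 to 0.12 without HFD/FGFR4 KD 1 and Chow/FGFR4 KD 4. Over both diets the log2 change was 0.38 (SE 0.153, 95% interval 0.05 to 0.70), with an unadjusted p of 0.0246 and an adjusted p of 0.492. Unadjusted p under 0.05 was reached by 8.88% of genes in that comparison and the call by 0.486%, *Fgfr4* among them. The *Fgfr2* change lay between 0.27 and 0.45 over the 16 fits with 1 library removed, and was called in none.

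*Fgfr1* and *Fgfr3* showed no common direction under KD. *Fgfr1* (ENSMUSG00000031565, chromosome 8) had 6.38, 6.05, 5.27 and 5.03 CPM in Chow and 4.56, 5.94, 2.42 and 6.89 CPM in Chow/FGFR4 KD. The HFD libraries had 2.45, 3.43, 2.77 and 6.91 CPM, and in HFD/FGFR4 KD 5.88, 5.31, 2.66 and 4.4045 CPM. KD and saline values were mixed on both diets, with ratios of 0.840 on chow (95% interval 0.516 to 1.37) and 1.24 on HFD (0.760 to 2.02). *Fgfr3* (ENSMUSG00000054252, chromosome 5) had 21.3, 15.9, 16.4 and 17.99 CPM in Chow and 26.97, 21.5, 28.8 and 10.8 CPM in Chow/FGFR4 KD. The HFD-fed mice had 25.9, 22.4, 30.1 and 45.03 CPM with saline and 19.1, 29.7, 26.2 and 31.1 CPM with KD. Both pairs of groups overlapped, and the lowest *Fgfr3* library was again Chow/FGFR4 KD 4 and the highest HFD 4. The ratios were 1.17 on chow (0.767 to 1.77) and 0.883 on HFD (0.621 to 1.25). Adjusted p was 0.976 on chow for both genes, and 0.793 for *Fgfr1* and 0.836 for *Fgfr3* on HFD. The intervals leave room for changes of up to 2.02 times for *Fgfr1* on HFD and up to 1.77 times for *Fgfr3* on chow. The difference between the KD effects on the 2 diets was called for no member, where 0.0353% of all genes were called and 6.76% had an unadjusted p under 0.05, with adjusted p from 0.814 for *Klb* to 0.984 for *Fgfr2*.

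**Figure D2:**
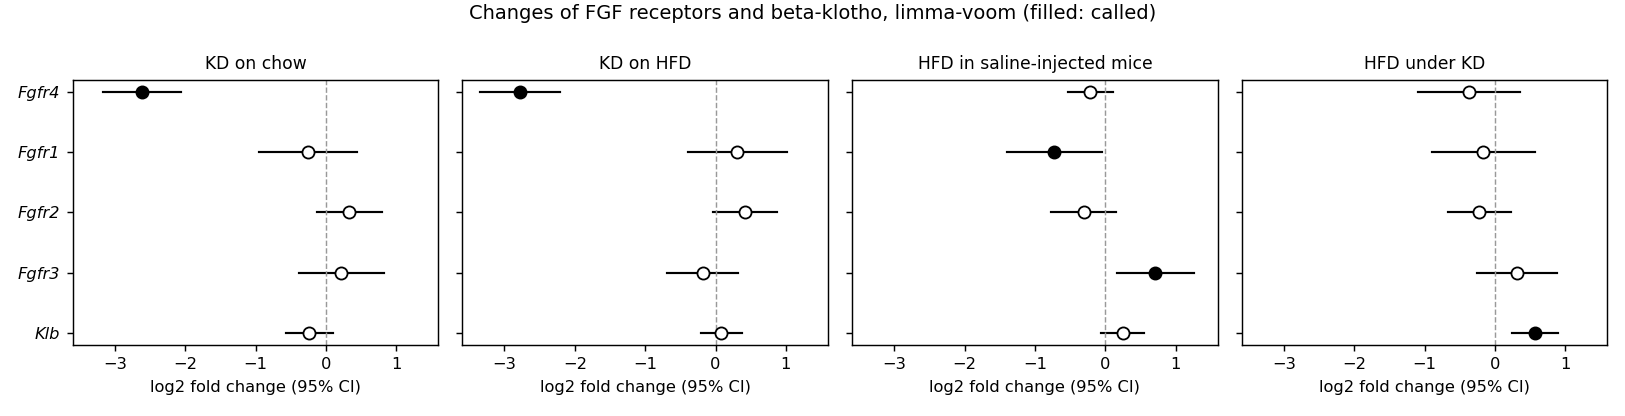
Log2 fold changes (horizontal axes) of the 4 FGF receptors and beta-klotho in 4 comparisons, from limma-voom over 11324 genes. Points are fitted changes, filled where the gene was called, and lines 95% intervals. *Fgfr4* lies near -2.62 on chow and -2.78 on HFD under KD, *Fgfr1* and *Fgfr3* are called with HFD in saline-injected mice, and *Klb* is called with HFD under KD.

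To set the receptors beside each other, CPM was divided by the length in kilobases of the longest coding transcript of each gene. This gives a level per length, which depends on which isoforms were present. It also assumes reads from along the transcript, as the KAPA mRNA kit named in the labels gives. The study's methods name HTG EdgeSeq instead, a probe assay whose counts would not scale with length. In Chow, *Fgfr4* was the highest with 8.94 ± 1.37 CPM per kb (SD, n = 4), followed by *Klb* with 6.36 ± 1.04, *Fgfr2* with 5.34 ± 1.44, *Fgfr3* with 4.22 ± 0.574 and *Fgfr1* with 1.13 ± 0.126. Neighbours in this order overlapped between libraries, other than *Fgfr1*, whose highest library (1.27) was below the lowest of *Fgfr3* (3.75). In HFD the order was *Fgfr4* (7.74 ± 1.28), *Klb* (7.46 ± 0.922), *Fgfr3* (7.27 ± 2.34), *Fgfr2* (4.17 ± 0.658) and *Fgfr1* (0.772 ± 0.407). The first 3 overlapped there, and each *Fgfr3* library (5.28 or more) was above each *Fgfr2* library (4.98 or less).

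Under KD, *Fgfr4* was below *Klb*, *Fgfr2* and *Fgfr3* in each library. Chow/FGFR4 KD livers had 1.44 ± 0.482 CPM per kb of *Fgfr4* and 0.983 ± 0.385 of *Fgfr1*, and HFD/FGFR4 KD livers 1.13 ± 0.406 and 0.905 ± 0.280, with overlap in both groups. *Fgfr2* had the highest mean in Chow/FGFR4 KD (6.85 ± 2.64) and *Klb* in HFD/FGFR4 KD (7.87 ± 1.09). Without Chow/FGFR4 KD 4, *Fgfr2* (5.58) was below *Fgfr3* (6.06) and *Klb* (5.63) in its group, so that place rests on 1 library. Parts of this order depend on the length used. With the length of all exons of a gene in place of the longest transcript, *Fgfr3* came before *Fgfr2* in Chow (2.50 against 2.23 CPM per kb), and *Klb* (4.12) was first and *Fgfr2* (2.86) behind *Fgfr3* (3.07) in Chow/FGFR4 KD. *Fgfr4* then stayed above *Fgfr1* under KD with no overlap, at 0.778 to 1.74 against 0.245 to 0.698 on chow and 0.687 to 1.5 against 0.269 to 0.596 on HFD.

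The mix of receptor transcripts changed accordingly. *Fgfr4* made up 45.5% ± 5.87 (SD, n = 4) of the summed level per length of the 4 receptors in Chow and 39.3% ± 8.26 in HFD. Under KD its share was 10.0% ± 3.49 on chow and 8.11% ± 2.57 on HFD. With the length of all exons of a gene the shares were 61.0%, 53.2%, 17.2% and 13.9%. The shares of the other receptors must be larger when that of *Fgfr4* falls, so the sums were compared as well. On chow *Fgfr4* was lower by 7.51 CPM per kb under KD, and *Fgfr1* to *Fgfr3* together were higher by 2.33, with 9.57 to 12.1 in Chow libraries and 12.3 to 14.6 in Chow/FGFR4 KD libraries. On HFD *Fgfr4* was lower by 6.61, and the sum of the other 3 was higher by 0.479, with 9.33 to 16.1 in HFD and 10.9 to 13.7 in HFD/FGFR4 KD. The ranges of the sum did not meet on chow and overlapped on HFD, and these sums were not tested. All 4 receptors together stood at 73.6% of the saline mean on chow and at 69.2% on HFD. These sizes depend on the length used. With the length of all exons, the 4 receptors summed to 13.7 CPM per kb in Chow and 7.78 in Chow/FGFR4 KD, and to 13.7 in HFD and 7.53 in HFD/FGFR4 KD. The sum of *Fgfr1* to *Fgfr3* was then 5.31 in Chow and 6.43 in Chow/FGFR4 KD, and 6.44 in HFD and 6.48 in HFD/FGFR4 KD.

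**Figure D3:**
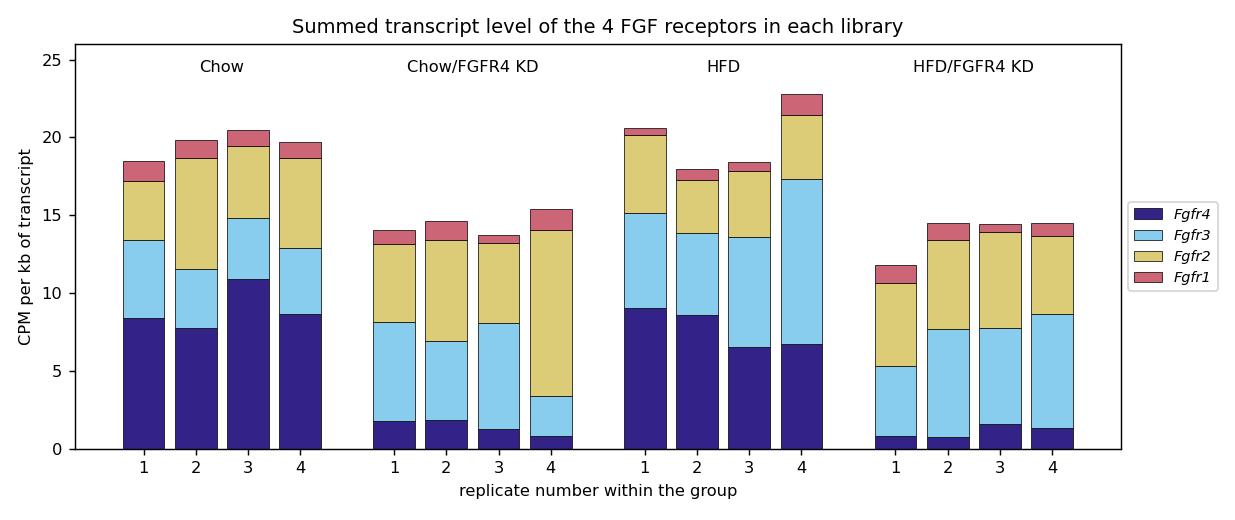
Summed level of *Fgfr4*, *Fgfr3*, *Fgfr2* and *Fgfr1* (stacked bars, CPM per kb of the longest coding transcript, from 0) in each of the 16 libraries, ordered by group and replicate number. The *Fgfr4* part falls from 6.55 to 10.9 in saline libraries to between 0.732 and 1.86 in KD libraries, and the whole bars from between 17.9 and 22.8 to between 11.8 and 15.4.

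*Klb* (ENSMUSG00000029195) lies on chromosome 5 from 65348314 to 65384007 on the plus strand. Beta-klotho mRNA did not pass the test under KD on either diet. The Chow libraries had 19.7, 27.9, 20.7 and 21.8 CPM and the Chow/FGFR4 KD libraries 23.2, 17.8, 18.8 and 15.2 CPM. On HFD the levels were 29.97, 27.6, 22.2 and 25.8 CPM with saline and 23.4, 30.8, 31.4 and 25.9 CPM with KD. Groups overlapped on both diets, and the lowest library of all was Chow/FGFR4 KD 4. The KD ratio was 0.849 on chow (95% interval 0.672 to 1.07) and 1.06 on HFD (0.867 to 1.29). The ratio of *Klb* to *Fgfr4* per length went from 0.730 ± 0.203 in Chow to 3.92 ± 1.02 in Chow/FGFR4 KD, and from 0.971 ± 0.0777 in HFD to 7.68 ± 2.99 in HFD/FGFR4 KD (SD, n = 4). Its lowest KD library had 2.71 and its highest saline library 1.08. This ratio restates the fall of *Fgfr4* and was not tested.

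With diet, *Fgfr1*, *Fgfr3* and *Klb* were each called in a comparison, and *Fgfr2* and *Fgfr4* in none. In saline-injected mice *Fgfr3* was called higher and *Fgfr1* lower with HFD, so 2 of the 5 members were called where 26% of all genes were, 13.3% higher and 12.7% lower. Under KD *Klb* was called higher with HFD, 1 of 5 members where 20.2% of genes were called, 10.1% higher and 10.1% lower. With 5 members, these counts are close to what the shares of all genes would give. The 2 comparisons share no library, while HFD in saline-injected mice shares its HFD libraries with KD on HFD.

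*Fgfr3* was 15.9 to 21.3 CPM in the Chow livers and 22.4 to 45.03 CPM in the HFD livers, so each HFD library was above each Chow library, a separation seen for 16.1% of all genes. It rose 1.64 times (95% interval 1.12 to 2.40, adjusted p = 0.0945). Leaving out any of the 8 libraries kept the call, with log2 changes from 0.53 to 0.85 and adjusted p up to 0.197. Under KD the ratio of HFD to chow was 1.24 (0.840 to 1.84, adjusted p = 0.551), with 10.8 to 28.8 CPM on chow and 19.1 to 31.1 CPM on HFD. Over both treatments, a contrast added after the data were seen, *Fgfr3* rose by 0.51 on the log2 scale (SE 0.187, adjusted p = 0.0644), where 33.2% of genes were called and 16.8% were called higher.

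*Fgfr1* fell with HFD to 0.605 times the Chow level (95% interval 0.378 to 0.967, adjusted p = 0.163) in saline-injected mice. In HFD, 3 livers had 2.45 to 3.43 CPM, below the lowest Chow library at 5.03 CPM, and HFD 4 had 6.91 CPM, above the highest at 6.38 CPM. The call was lost in 5 of the 8 fits that left out a library, namely Chow 1, Chow 2, HFD 1, HFD 2 or HFD 3. It was lost as well in edgeR's quasi-likelihood test (adjusted p = 0.289), in DESeq2 (adjusted p = 0.326) and when only library totals were used for scaling (adjusted p = 0.301). Under KD the ratio was 0.893 (0.538 to 1.48, adjusted p = 0.835), and the groups were mixed.

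*Klb* was higher with HFD in all comparisons run, and was called under KD. The 4 HFD/FGFR4 KD libraries, at 23.4 to 31.4 CPM, were each above the 4 Chow/FGFR4 KD libraries, at 15.2 to 23.2 CPM, a separation seen for 11.5% of genes, and the gap between the nearest libraries was small. *Klb* rose 1.48 times (95% interval 1.18 to 1.85, adjusted p = 0.0576). The call held when each of the 8 libraries was left out, with log2 changes from 0.47 to 0.68, and without HFD/FGFR4 KD 1 and Chow/FGFR4 KD 4 together (0.55, adjusted p = 0.0720). In saline-injected mice the ratio was 1.19 (0.962 to 1.46, adjusted p = 0.292), with overlap of Chow (19.7 to 27.9 CPM) and HFD (22.2 to 29.97 CPM). It was called there when libraries were scaled by their totals alone (adjusted p = 0.0440), under which the log2 change of the median gene was 0.29. Over both treatments, the added contrast, *Klb* rose by 0.41 on the log2 scale (SE 0.105, adjusted p = 0.0140), and the call held without each of the 16 libraries. The difference between the HFD effect under KD and that with saline is the same contrast as the difference between the KD effects, 0.32 for *Klb* (SE 0.210, adjusted p = 0.814), so *Klb* is not shown to respond more under KD.

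With HFD, *Fgfr2* had a ratio of 0.809 in saline-injected mice (95% interval 0.586 to 1.12) and 0.859 under KD (0.628 to 1.18). Without Chow/FGFR4 KD 4, the library with the highest *Fgfr2*, the log2 change under KD went from -0.22 to 0.0011.

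The promoters of the 2 members called higher with HFD are shown from RefSeq (GRCm38.p6), as 300 bases around the annotated start, most of them before it. Capitals mark CG dinucleotides, which are dense in promoters of the CpG island kind. For *Klb* the window is chr5:65348161-65348460 on the plus strand.
Klb: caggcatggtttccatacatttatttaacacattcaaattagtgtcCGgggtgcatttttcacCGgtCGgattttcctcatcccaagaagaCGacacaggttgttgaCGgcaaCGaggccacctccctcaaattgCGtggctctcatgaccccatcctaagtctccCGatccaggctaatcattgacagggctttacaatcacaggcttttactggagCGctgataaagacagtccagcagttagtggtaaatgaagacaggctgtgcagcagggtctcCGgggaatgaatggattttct
For *Fgfr3* the first of 2 annotated starts is shown, chr5:33721474-33721773 on the plus strand.
Fgfr3: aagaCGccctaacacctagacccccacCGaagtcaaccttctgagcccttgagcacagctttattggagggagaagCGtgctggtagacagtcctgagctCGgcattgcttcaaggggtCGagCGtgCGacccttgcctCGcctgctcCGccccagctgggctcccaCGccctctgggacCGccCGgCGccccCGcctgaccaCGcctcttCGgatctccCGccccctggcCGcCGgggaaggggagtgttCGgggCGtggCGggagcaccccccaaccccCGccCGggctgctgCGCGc
The *Klb* window held 10 CG dinucleotides and 48.3% G and C, and the *Fgfr3* window 26 and 69.7%. Of 32851 mouse promoter windows of the same length, 56.5% had fewer CG than *Klb* and 83.1% fewer than *Fgfr3*. The nuclear receptor half-site AGGTCA, searched on both strands, was in neither, nor in the windows of *Fgfr2* and *Fgfr4*, and in 16.3% of all windows. No window was given for *Fgfr1*. These letters describe the windows only.

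Markers of other liver cells moved with HFD beside these changes. In saline-injected mice all 6 Kupffer cell and macrophage markers were called higher with HFD, where 13.3% of all genes were, and their sum went from 36.0 to 45.2 CPM in Chow to 66.4 to 124 CPM in HFD. Of 7 stellate cell markers 4 were called higher, with sums of 90.4 to 142 CPM in Chow and 145 to 222 CPM in HFD. Of 6 endothelial markers 3 were called higher (94.6 to 121 and 103 to 122 CPM), and the other 3 were lower and not called. Of 6 hepatocyte markers 3 were called lower, where 12.7% of all genes were, and the other 3 were higher and not called. The sums of the hepatocyte list overlapped (62335 to 69120 and 59818 to 70509 CPM). *Cfd*, the 1 of 5 adipocyte markers that was tested, was called higher. In HFD *Lep* and *Plin1* were at 0, and in Chow *Lep* alone. The sum of the adipocyte list was 0.532 to 13.6 CPM in Chow and 18.3 to 28.5 CPM in HFD. Under KD the HFD effect was called for 2 stellate markers (*Reln*, *Colec11*), *Stab2* of the endothelial list, *Csf1r* of the Kupffer list and *Cfd*, all higher, and for *Sox9* of the cholangiocyte list, lower. In that comparison 10.1% of all genes were called higher and 10.1% lower. The calls of *Reln*, *Colec11* and *Cfd* were lost without HFD/FGFR4 KD 1 and Chow/FGFR4 KD 4. The part of these cells in the changes of *Fgfr1*, *Fgfr3* and *Klb* was not tested. With KD on HFD, where 1.64% of all genes were called lower, *Ttr* of the hepatocyte list and *Cfd* were, and no other marker was called. *Cfd* was not called without those libraries (adjusted p = 0.305).

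The genes around the receptors were taken from lists of the pathway. FGF ligands were hardly measured in liver, with 2 of 18 genes tested. *Fgf15*, the ileal ligand of FGFR4, had no count in any of the 16 libraries, and 14 of the 18 never passed 3 counts. *Fgf1*, a paracrine FGF that binds all the receptors, had 42.8 to 86.8 CPM and was called in no comparison. *Fgf21*, the liver hormone that uses beta-klotho, had 2.38, 1.37, 0.303 and 0.276 CPM in Chow/FGFR4 KD and 2.38, 5.75, 8.97 and 5.96 CPM in HFD/FGFR4 KD. Its KD libraries on HFD were all at or above the highest on chow, where 11.5% of all genes were separated between these groups. *Fgf21* rose by 2.59 on the log2 scale (SE 0.644, adjusted p = 0.0393) on 1 to 54 estimated counts, so the 2 lowest libraries were under the floor of 3 counts. With saline, *Fgf21* was 1.23 to 4.43 CPM on chow and 2.02 to 6.59 CPM on HFD and was not called.

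Among co-receptors and heparan sulfate proteoglycans, the cell-surface chains that FGFs need to bind, 7 of 17 genes were tested. *Kl*, the co-receptor of FGF23, had at most 4.37 estimated counts and was not tested. No gene of this list was called under KD on either diet. With HFD in saline-injected mice 3 were called higher and 1 lower, where 13.3% and 12.7% of all genes were, with a median log2 change of -0.04 against 0.01 for all genes. The leading gene was *Gpc1*, a glypican, at 3.65 to 5.54 CPM in Chow and 34.8 to 49.1 CPM in HFD, a rise of 3.10 on the log2 scale (SE 0.334, adjusted p = 0.000103). Under KD it rose by 2.52 (adjusted p = 0.000970). *Fgfrl1*, an FGF receptor without a kinase domain, rose by 0.90 (adjusted p = 0.0773) in saline-injected mice, from 7.30 to 20.1 CPM in Chow libraries to 16.02 to 27.7 CPM in HFD libraries. The syndecan *Sdc3* rose by 0.82 and *Sdc2* fell by 0.28 (adjusted p 0.0131 and 0.0658), and *Sdc4* fell by 0.50 with HFD under KD (adjusted p = 0.111).

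**Figure D4:**
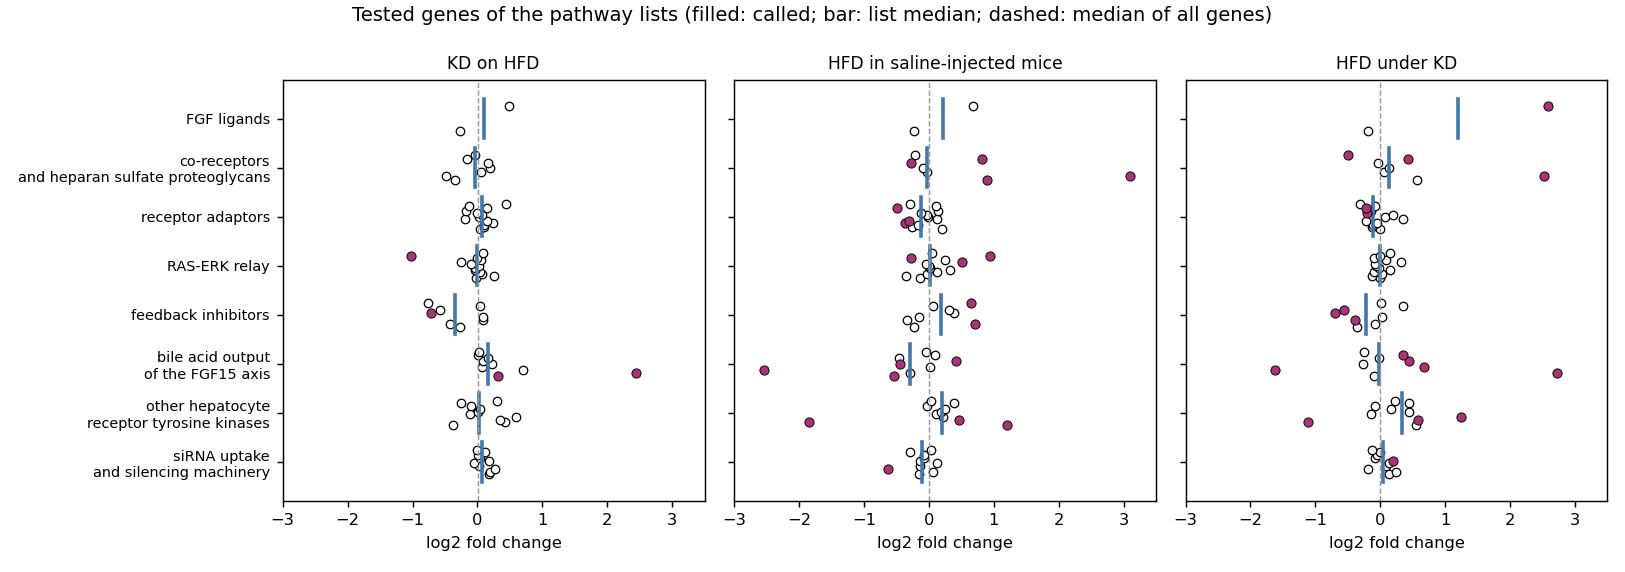
Log2 fold changes (horizontal axes) of the tested genes of 8 pathway lists (rows) in 3 comparisons. Points are genes, filled where called, short bars list medians and the dashed line the median of all 11324 genes. Most points lie near 0 for KD on HFD, where *Cyp7a1* (2.45) and *Rps6ka1* (-1.03) stand out, and *Gpc1* (3.10) lies at the right edge for HFD in saline-injected mice.

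Inside the cell, 1 gene of the RAS-ERK relay was called under KD and no adaptor. Of 13 tested receptor adaptors none was called on either diet. With HFD in saline-injected mice, where 12.7% of all genes were called lower, 3 adaptors were, *Sos1*, the exchange factor that loads RAS (-0.48 on the log2 scale, adjusted p = 0.00518), *Frs2*, the docking protein of FGF receptors (-0.31, adjusted p = 0.118), and *Crkl* (-0.36, adjusted p = 0.170). With HFD under KD, where 10.1% of all genes were called lower, *Sos1* and the phosphatase gene *Ptpn11* were (-0.23 and -0.21, adjusted p 0.207 and 0.183). Neither was called without HFD/FGFR4 KD 1 and Chow/FGFR4 KD 4 (adjusted p 0.282 and 0.449). In the RAS-ERK relay 1 of 13 genes was called for KD on HFD, where 3.14% of all genes were, *Rps6ka1*, a ribosomal S6 kinase that ERK activates. It had 16.1, 10.6, 19.2 and 14.5 CPM in HFD and 3.69, 8.19, 10.6 and 7.77 CPM in HFD/FGFR4 KD, which met at 10.6 CPM, and fell by 1.03 (SE 0.257, adjusted p = 0.109). Without HFD/FGFR4 KD 1, its lowest library, and Chow/FGFR4 KD 4 the change was -0.72 and not called (adjusted p = 0.267). With HFD in saline-injected mice it rose by 0.93 (adjusted p = 0.0301). These 2 comparisons share the HFD libraries. *Mapk3* (ERK1) rose by 0.51 with HFD in saline-injected mice (adjusted p = 0.0597).

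Feedback inhibitors, which FGF signalling induces to limit itself, had 8 of 14 genes tested, with *Spry3* not matched to an identifier. For KD on HFD 1 was called, where 3.14% of all genes were and 1.64% were called lower. This was *Spred1*, an inhibitor of RAS activation. It had 14.7, 13.2, 17.8 and 17.8 CPM in HFD and 7.80, 10.2, 9.46 and 11.1 CPM in HFD/FGFR4 KD. Each KD value was below each saline value, and 6.49% of all genes were separated between these groups. *Spred1* fell by 0.71 (SE 0.210, adjusted p = 0.196). Without HFD/FGFR4 KD 1 and Chow/FGFR4 KD 4 the change was -0.62 and not called (adjusted p = 0.385). The list's median log2 change was -0.34 for KD on HFD against 0.00354 for all genes and 0.02 for KD on chow, with 5 of 8 genes lower on HFD. With HFD under KD, where 10.1% of all genes were called lower, *Spred1*, *Spred2* and *Nf1* were (-0.70, -0.56 and -0.38, adjusted p 0.0938, 0.166 and 0.236). With HFD in saline-injected mice, where 13.3% of all genes were called higher, *Dusp7* and *Spry4* were (0.71 and 0.65, adjusted p 0.104 and 0.146). *Nf1*, which was chosen after its values were seen, was not called under KD without HFD/FGFR4 KD 1 and Chow/FGFR4 KD 4 (adjusted p = 0.481).

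The list of bile acid synthesis and its regulators had 9 genes, all tested. *Cyp7a1*, the rate-limiting enzyme of bile acid synthesis, had 34.9, 41.7, 29.9 and 59.2 CPM in HFD and 207, 183, 172 and 334 CPM in HFD/FGFR4 KD. All 4 KD libraries were far above the 4 saline libraries, where 6.49% of all genes were separated, and *Cyp7a1* rose by 2.45 (SE 0.326, adjusted p = 0.00276). On chow it had 20.6 to 66.4 CPM with saline and 18.2 to 50.6 CPM with KD and was not called, and the KD effect on HFD exceeded that on chow by 3.01 (SE 0.495, adjusted p = 0.0764). *Cyp27a1*, an enzyme of the alternative pathway, was called higher for KD on HFD too (0.32, adjusted p = 0.211), but not without HFD/FGFR4 KD 1 and Chow/FGFR4 KD 4 (adjusted p = 0.360). The list's median log2 change was 0.16 for KD on HFD, with 9 genes higher and 2 called, and -0.20 for KD on chow, with 3 higher, 6 lower and 0 called in limma-voom. Of all genes, 3.14% were called for KD on HFD and 0.00883% for KD on chow. With HFD in saline-injected mice *Cyp7b1* fell by 2.53 (adjusted p = 0.0139) and *Cyp27a1* by 0.53, and *Mafg*, a repressor of this pathway, rose by 0.42 (adjusted p = 0.0147). In all 1 of the 9 was called higher and 3 lower there, where 26% of all genes were called. With HFD under KD 4 were called higher and 1 lower, where 20.2% of all genes were. Of these, *Cyp8b1* (0.67, adjusted p = 0.111) was not called without HFD/FGFR4 KD 1 and Chow/FGFR4 KD 4 (adjusted p = 0.284).

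**Figure D5:**
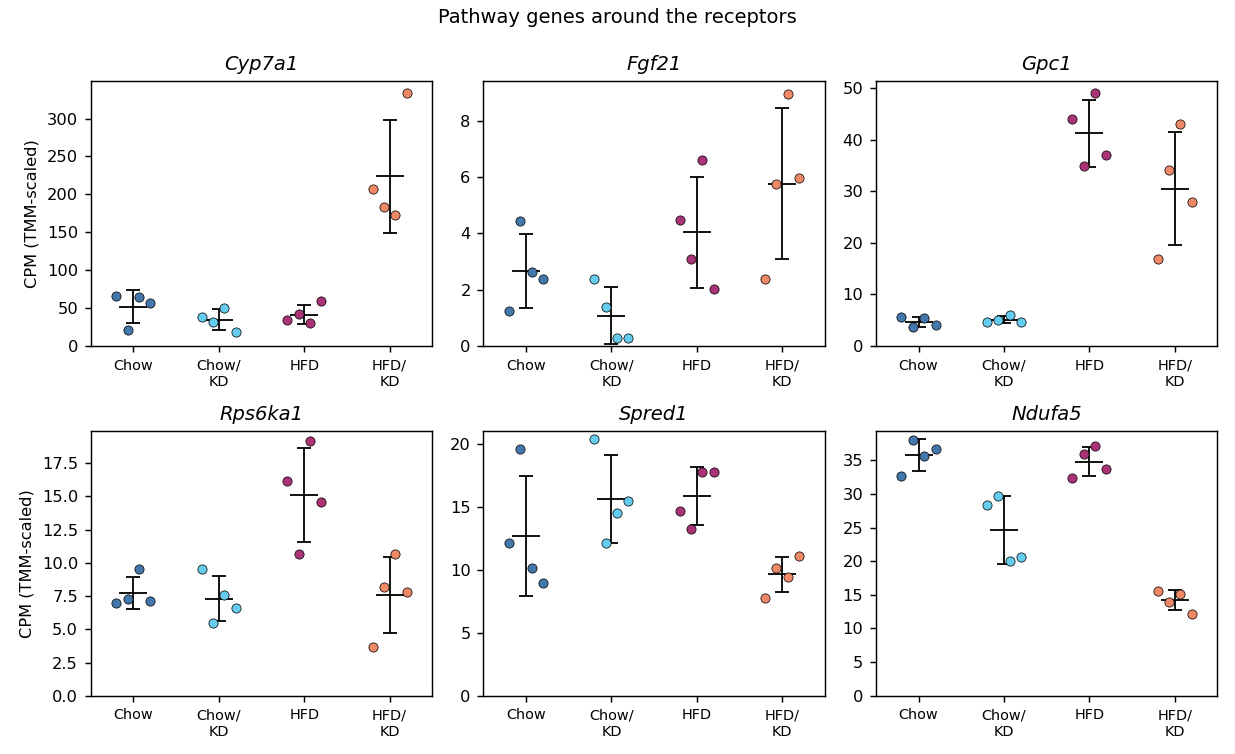
Levels in CPM (vertical axes from 0, a scale of its own for each gene) of 6 genes in the 4 groups, 5 from the pathway lists and *Ndufa5*, whose pattern was most like that of *Fgfr4*. Points are libraries, horizontal lines group means and bars ± 1 SD (n = 4). *Cyp7a1* is high in HFD/FGFR4 KD only, at 172 to 334 CPM, *Gpc1* is high in both HFD groups, and *Ndufa5* is lowest in HFD/FGFR4 KD at 12.2 to 15.6 CPM.

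The other receptor tyrosine kinases of the list, 10 of 14 tested, were called in neither KD comparison. With HFD in saline-injected mice *Axl* and *Epha1* were called higher (1.203 and 0.46, adjusted p 0.00877 and 0.161) and *Egfr*, the epidermal growth factor receptor, lower (-1.85, adjusted p = 0.0347). In that comparison 13.3% of all genes were called higher and 12.7% lower. *Egfr* was 430 to 1067 CPM in Chow and 125 to 485 CPM in HFD, so the groups overlapped. With HFD under KD *Epha2* and *Epha1* were called higher (1.24 and 0.58, adjusted p 0.0397 and 0.121) and *Egfr* lower (-1.11, adjusted p = 0.242). There 10.1% of all genes were called higher and 10.1% lower. The genes for siRNA uptake and silencing, all 10 tested, were called in neither KD comparison. *Asgr2*, a subunit of the receptor that takes up the conjugate, was called higher with HFD under KD (0.20, adjusted p = 0.210, and 0.436 without HFD/FGFR4 KD 1 and Chow/FGFR4 KD 4), and *Ago3*, an Argonaute protein, lower with HFD in saline-injected mice (-0.64, adjusted p = 0.0373).

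Genes with a pattern like that of a member were ranked by Pearson's r of log2 CPM over the 16 libraries, which share their groups, so r describes likeness only. *Fgfr4* was low in the KD groups, so ranking by likeness to it favours genes lower under KD. The separations and tests of the ranked genes given below follow in part from this choice. For *Fgfr4* the first 3 were *Ndufa5*, a subunit of respiratory complex I (r = 0.86), *Cisd1*, a mitochondrial outer membrane protein (0.85), and *Cs*, citrate synthase (0.81). *Ndufa5* had 32.4, 36.0, 37.1 and 33.7 CPM in HFD and 15.6, 13.9, 15.1 and 12.2 CPM in HFD/FGFR4 KD, and fell by 1.28 (SE 0.130, adjusted p = 9.06e-05). On chow its groups did not overlap either, at 32.6 to 38.1 and 19.98 to 29.7 CPM, with a log2 change of -0.52 that was not called (adjusted p = 0.976). Of all genes, 6.49% were separated in this way for KD on HFD and 2.52% for KD on chow. *Cisd1* fell by 0.85 and *Cs* by 0.50 for KD on HFD (adjusted p 0.0180 and 0.0525). For *Klb* the first 3 were *Daglb* (0.85), *Rgs16* (0.84) and *Pcgf1* (0.84). *Rgs16*, a regulator of G protein signalling, was 9.23 to 46.4 CPM in Chow and 123 to 252 CPM in HFD. For *Fgfr1* they were *Ppp4r3b* (0.84), *Igf1*, the growth factor (0.82), and *Scyl3* (0.80).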

How the data were processed

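The authors trimmed reads with fastp and estimated transcript abundance with kallisto against GRCm38, per the labels and the submitters' processing notes; versions and the transcript release are not given in the sources used here. The deposited table holds estimated counts (expected counts) per gene, of which 7.85% to 11.1% of values per library were not whole. They were rounded for DESeq2 and not for edgeR or limma-voom. The filter removed genes below 1 CPM in over 4 libraries and left 11324. TMM factors (edgeR 4.0.16) and limma-voom (limma 3.58.1, R 4.3.3) were used on all 16 libraries, and calls required both p under 0.05 and, after Benjamini-Hochberg adjustment, under 0.25. DESeq2 1.42.0 and edgeR's quasi-likelihood test were alternatives. On simulated counts for KD on HFD, 83.4% of 199 genes changed by 1 on the log2 scale were recovered among 11210 tested, and 22.4% of calls were false. No pair of libraries of a group agreed within sampling noise (24 pairs, chi-square per degree of freedom 7.59 or more).

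The members and lists were chosen with earlier results of these data known. Named genes were the members, up to 4 called genes per list by smallest p, *Fgf15*, *Fgf21*, *Kl*, *Fgfrl1* and *Cyp7a1*, and the 3 genes most like *Fgfr4*, *Fgfr1* and *Klb*, predicted genes left out; others were chosen after their values were seen. A gene of the RAS-ERK list that this rule names is not reported here. Symbols came from GENCODE M21 and matched 98.3% of identifiers. Promoter windows came from RefSeq. The 95% intervals come from limma-voom and cover the spread between mice, and the floor of 3 counts covers counting error only. The labels name the KAPA mRNA HyperPrep kit and the study's methods HTG EdgeSeq, and the labels were followed.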

Additional observations from a re-analysis of the deposited data

Results flagged for a closer look

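Of 28 sets of 4 values tested with Dixon's critical value at the 95% level, 0 held a library that stood apart.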

How the results depend on the processing

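Over the comparisons of the 5 members, 349 results under other settings kept direction and call, as did 365 with a library left out. Under other settings 7 turned direction, 1 gained a call and 3 lost one. With a library left out 22 turned direction, 8 gained a call and 5 lost one. The *Fgfr4* calls under KD held in each fit run, except that DESeq2 gave no adjusted p for KD over both diets. Log2 changes turned direction with library totals for *Fgfr4* with HFD and saline (0.0724), *Fgfr2* in the difference between KD effects (-0.0427), *Fgfr3* for KD over both diets (-0.0122) and *Klb* for KD on HFD (-0.00327), and *Klb* with HFD and saline became called (0.518). With HFD/FGFR4 KD 1 and Chow/FGFR4 KD 4 left out, chosen after seeing the data, *Fgfr1* (-0.122) and *Klb* (0.0102) turned for KD over both diets and *Fgfr2* for HFD under KD (0.0239). *Fgfr1* with HFD and saline was not called in edgeR (-0.585), DESeq2 (-0.576) or with library totals (-0.436). The cause was not tested.

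With each library left out in turn, changes ran from -0.986 to -0.545 for *Fgfr1* with HFD and saline, -0.402 to 0.135 under KD and -0.576 to -0.296 over both treatments, and from -0.0612 to 0.179 for KD over both diets. For *Fgfr2* they ran from -0.374 to 0.0011 with HFD under KD, -0.345 to -0.153 over both treatments and -0.0565 to 0.308 in the difference between KD effects. For *Fgfr3* under KD over both diets they ran from -0.0566 to 0.163. For *Fgfr4* they ran from -0.410 to -0.204 with HFD over both treatments and -0.395 to 0.0174 in the difference, and for *Klb* from 0.178 to 0.343 with HFD and saline and -0.00114 to 0.164 for KD on HFD.

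The number of genes called for KD on HFD ran from 31 (adjusted p under 0.05) to 776 (library quality weights) around 356, with 89 without HFD 3 and 605 without HFD 2. For KD on chow it was 1 to 3, for KD over both diets 2 to 210 around 55, for HFD and saline 1042 to 5324 around 2939, for HFD under KD 351 to 2642 around 2293, for HFD over both treatments 2099 to 6831 around 3763 and for the difference 0 to 62 around 4. Same-numbered libraries of different groups had r from -0.29 to 0.24 between their deviations from group means, with 7 of 24 over 0.1. Differently numbered libraries had r from -0.43 to 0.41, with 18 of 72 over 0.1. This gave no sign that the numbers pair samples, but a weak pairing, or one in few genes, could be missed. With the replicate number as a block the *Fgfr4* change was -2.77 on HFD and -2.61 on chow, no member's call changed, and 259 genes were called for KD on HFD. Low counts limit *Fgfr1*, and *Fgfr4* under KD.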
